A study of Danio rerio with 14 samples.

Results

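The genes described here are 9 that act in the copying of DNA: mcm2, mcm3, mcm4, mcm5, mcm6, mcm7, pcna, rrm1 and tyms. They were chosen by symbol. A gene was represented by the probe set that the array's annotation names with that symbol alone, and by the brightest one where it had several. All 9 were measured, of 20908 genes with a level. Liver RNA was hybridised on 14 whole-transcriptome zebrafish arrays, 4 for HBx,Src(p53-) fish, 3 for Src(p53-) fish, 3 for HBx(p53-) fish and 4 for wild-type (WT) fish of the AB strain. HBx is a regulatory protein of hepatitis B virus and Src is a tyrosine kinase. Both were driven by the liver promoter fabp10a, and the 3 transgenic lines share a p53 mutation that the WT fish lack, so the transgenes and the loss of p53 cannot be told apart in a comparison with WT. Fish were fed for 8 weeks from an age of 3 months. Overfeeding (DIO) meant 3 daily meals of 2 mL Artemia, or 12 times the volume of the normal diet. A high fat diet (FAT) added 3 daily portions of 0.22 g of fatty food to the normal one, and the normal diet (NOR) held 1 daily meal of 0.5 mL Artemia. Every group was given powdered feed each morning as well. HBx,Src(p53-) fish had 2 overfed and 2 normal diet arrays and no high fat array, Src(p53-) and HBx(p53-) fish had 1 array per diet, and WT fish had 1 overfed, 1 high fat and 2 normal diet arrays. The numbers of fish and of arrays are equal, which is read here as 1 fish per array. The spread of duplicates is then that of individual fish and of the assay. Duplicates exist in 3 groups and give 3 residual degrees of freedom, while the models behind the p-values have 6 and 8. The model with 6 treats overfeeding and the high fat diet alike, so its spread includes any difference they make. The spread of the model with 8 includes any diet effect that differs between genotypes. The sex of the fish on each array is not given in the sources used here.

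Before a cell copies its DNA, the 6 proteins MCM2 to MCM7 are loaded onto replication origins as a ring, which later becomes the motor of the helicase that unwinds the double helix. PCNA is the sliding clamp that holds DNA polymerases on the template. Ribonucleotide reductase, whose large subunit is made from rrm1, and thymidylate synthase, made from tyms, supply the DNA building blocks. The genes are turned on together in cells entering S phase, and since most hepatocytes of an adult liver are at rest, their transcripts are usually scarce there. In bulk liver RNA, more cycling cells cannot be told apart from more transcript per cell.

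Levels are log2 values after the robust multi-array average (RMA), so a difference of 1 is a 2-fold difference. The highest array median over all probe sets was 2.23, and 34.3% of genes had a mean level below it. Among the members, mcm3 (mean 1.89), mcm4 (2.26), mcm5 (2.45) and tyms (2.50) were below or near it, where a probe set can sit near its background and RMA narrows differences. Between the duplicate arrays of a group, 3412 genes in WT normal diet, 2976 in HBx,Src(p53-) normal diet and 1567 in HBx,Src(p53-) overfed fish lay more than 2-fold apart, of which 2, 0 and 2 were members. Hepatocyte markers averaged 11.72 to 11.93 on HBx,Src(p53-) arrays, 11.79 to 11.99 on Src(p53-) arrays, 11.89 to 12.07 on HBx(p53-) arrays and 11.19 to 11.95 on WT arrays.

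The line with both transgenes had the highest mean levels of the clamp gene and of rrm1 and tyms, which act in nucleotide supply. Over all diets, relative to WT, pcna was +1.73 ± 0.34 on the log2 scale, rrm1 +1.53 ± 0.29 and tyms +1.19 ± 0.28 in HBx,Src(p53-) fish (± is the standard error from limma here and below). The helicase genes spread more widely, with mcm2 at +0.89 ± 0.30, mcm4 at +0.77 ± 0.30 and the others between +0.11 and +0.61. No member passed the threshold of an adjusted p under 0.05, although rrm1 and pcna lay just outside it (limma, adjusted p = 0.0516 and 0.0527). In the lines with a single transgene, the largest positive changes of a member relative to WT were +0.72 (mcm6) in Src(p53-) and +0.19 in HBx(p53-).

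**Figure D1:**
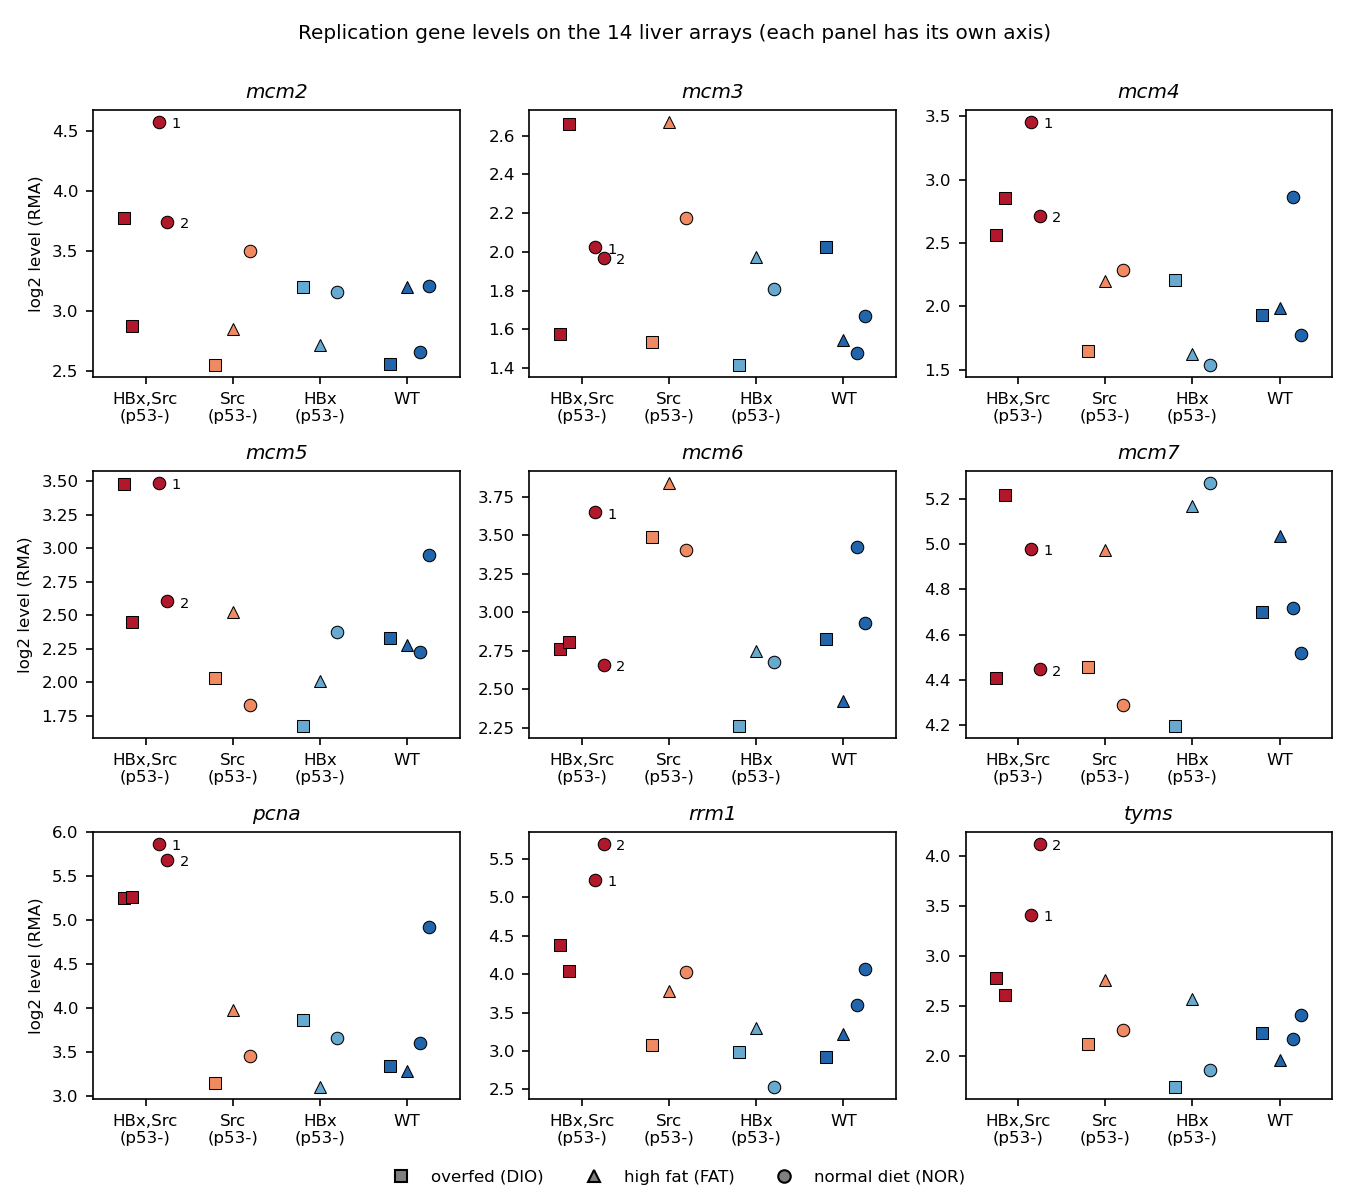
Log2 level (RMA) of each member on the 14 arrays, with genotypes along the horizontal axis and diets as marker shapes. The digits 1 and 2 mark the pair of HBx,Src(p53-) normal diet arrays. Every HBx,Src(p53-) array lies above the 10 other arrays for pcna, and the normal diet pair leads for rrm1 and tyms, while mcm6 is highest on the 3 Src(p53-) arrays together with HBx,Src(p53-) normal diet 1 and WT normal diet 1.

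The clamp gene pcna was the member that set HBx,Src(p53-) apart most completely. Its level was 5.26 and 5.27 on the HBx,Src(p53-) overfed arrays and 5.86 and 5.69 on the normal diet arrays. In the other lines pcna was 3.15 (overfed), 3.98 (high fat) and 3.46 (normal diet) in Src(p53-), 3.87, 3.11 and 3.66 in the same order in HBx(p53-), and 3.34 (overfed), 3.28 (high fat), 3.61 and 4.92 (normal diet) in WT. All 4 HBx,Src(p53-) arrays were above the other 10, the nearest of which was WT normal diet 2. No other member separated in this way (1 of 9), against 0.957% of all genes. The genotype means were 5.52 ± 0.30 (SD, n = 4) in HBx,Src(p53-), 3.53 ± 0.42 (SD, n = 3) in Src(p53-), 3.54 ± 0.39 (SD, n = 3) in HBx(p53-) and 3.79 ± 0.77 (SD, n = 4) in WT, and the last 3 overlapped.

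For rrm1, the large subunit of ribonucleotide reductase, HBx,Src(p53-) arrays read 4.38 and 4.04 in overfed fish and 5.23 and 5.69 under normal diet. Against these stood 3.07 (overfed), 3.77 (high fat) and 4.03 (normal diet) in Src(p53-), 2.98, 3.29 and 2.53 in HBx(p53-), and 2.93, 3.22 and, on the normal diet pair, 3.60 and 4.06 in WT. The HBx,Src(p53-) normal diet pair was clear of all other arrays, while the lower overfed array, at 4.04, was just under WT normal diet 2. By genotype the mean was 4.83 ± 0.76 (SD, n = 4) in HBx,Src(p53-), 3.62 ± 0.49 (SD, n = 3) in Src(p53-), 2.94 ± 0.38 (SD, n = 3) in HBx(p53-) and 3.45 ± 0.49 (SD, n = 4) in WT. A second rrm1 probe set, dimmer at a mean of 2.22, did not follow the first: it was -0.28 ± 0.35 in HBx,Src(p53-) relative to WT (limma over all 75212 probe sets, adjusted p = 0.868).

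Thymidylate synthase (tyms), which makes the thymine nucleotide, had a similar order. HBx,Src(p53-) arrays read 2.78 and 2.61 in overfed fish and 3.41 and 4.12 under normal diet, the highest level of all being on normal diet 2. Src(p53-) arrays read 2.12 (overfed), 2.77 (high fat) and 2.26 (normal diet), HBx(p53-) arrays 1.69, 2.57 and 1.86, and WT arrays 2.23, 1.95 and, under normal diet, 2.17 and 2.41. All HBx,Src(p53-) arrays were above every WT array, as for pcna (2 of 9 members, against 3.77% of all genes), but the high fat Src(p53-) array overlapped the overfed pair. Mean levels were 3.23 ± 0.69 (SD, n = 4) in HBx,Src(p53-), 2.38 ± 0.34 (SD, n = 3) in Src(p53-), 2.04 ± 0.46 (SD, n = 3) in HBx(p53-) and 2.19 ± 0.19 (SD, n = 4) in WT.

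Of the helicase genes, mcm2 was the one furthest from WT. It read 3.77 and 2.87 in overfed and 4.57 and 3.74 in normal diet HBx,Src(p53-) fish, against 2.55 (overfed), 2.85 (high fat) and 3.50 (normal diet) in Src(p53-), 3.20, 2.72 and 3.16 in HBx(p53-), and 2.56, 3.20 and, under normal diet, 2.66 and 3.21 in WT. Of the 4 HBx,Src(p53-) arrays, 3 were above all others, and overfed 2 lay among the other lines. The subunit gene mcm4 read 2.56 and 2.86 in overfed and 3.46 and 2.72 in normal diet HBx,Src(p53-) fish, against 1.65, 2.20 and 2.28 in Src(p53-), 2.21, 1.62 and 1.54 in HBx(p53-), and 1.93, 1.98, 2.86 and 1.77 in WT (overfed, high fat, then normal diet). Here WT normal diet 1 alone reached the level of the HBx,Src(p53-) arrays.

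The mcm5 levels split the HBx,Src(p53-) arrays into pairs that cut across diet, 3.48 on overfed 1 and 3.49 on normal diet 1, against 2.45 on overfed 2 and 2.60 on normal diet 2. In the other lines mcm5 read 2.03, 2.52 and 1.83 in Src(p53-), 1.67, 2.01 and 2.38 in HBx(p53-), and 2.33, 2.28, 2.23 and 2.95 in WT (overfed, high fat, then normal diet). Its lower pair was within the range of WT. A second mcm5 probe set was -0.19 ± 0.58 in HBx,Src(p53-) relative to WT, with its highest levels on the overfed Src(p53-) array (3.96) and the normal diet HBx(p53-) array (3.88).

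The other 3 helicase genes did not set HBx,Src(p53-) apart. For mcm3 the levels were 1.58 and 2.66 in overfed and 2.02 and 1.97 in normal diet HBx,Src(p53-) fish, against 1.54, 2.67 and 2.18 in Src(p53-), 1.42, 1.98 and 1.81 in HBx(p53-), and 2.03, 1.55, 1.48 and 1.67 in WT (overfed, high fat, then normal diet). For mcm6 they were 2.76 and 2.81 in overfed and 3.65 and 2.66 in normal diet HBx,Src(p53-) fish, against 3.49, 3.84 and 3.41 in Src(p53-), 2.26, 2.75 and 2.68 in HBx(p53-), and 2.82, 2.42, 3.42 and 2.93 in WT. The mcm3 levels overlapped between all lines, and mcm6, on the probe set used, was high on every Src(p53-) array and on only 1 HBx,Src(p53-) array.

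For mcm7, the last subunit gene of the ring, the levels were 4.41 and 5.22 in overfed and 4.98 and 4.45 in normal diet HBx,Src(p53-) fish. It read 4.46, 4.97 and 4.29 in Src(p53-), 4.20, 5.17 and 5.27 in HBx(p53-), and 4.70, 5.04, 4.72 and 4.52 in WT (overfed, high fat, then normal diet). These ranges overlapped throughout. One other mcm7 probe set was +1.05 ± 0.56 and another +0.31 ± 0.37 in HBx,Src(p53-) relative to WT. The 2 other mcm6 probe sets were +0.26 ± 0.29 and +0.21 ± 0.21. A further probe set with the symbol mcm3 but a different Entrez identifier was -0.03 ± 0.30.

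The first comparison asked how each line differed from WT once diet was taken into account, in a limma model with a term for each. In HBx,Src(p53-) all 9 members were higher than in WT, with a median of +0.77, against 53.1% higher and a median of +0.03 over all genes. None was called, where 0.497% of all genes were. At an unadjusted p under 0.05, 5 members were higher (pcna, rrm1, tyms, mcm2 and mcm4), against 8.74% of all genes, and 3 were more than 2-fold higher (pcna, rrm1 and tyms), against 4.32%, or 3.75% where both criteria had to be met. The adjusted p was 0.0933 for tyms, 0.248 for mcm2 and 0.319 for mcm4. The largest of these changes stood near the threshold: both pcna and rrm1 were called when each array was centred on its median (adjusted p = 0.043 for both), and pcna was called without WT normal diet 2 (+2.09, adjusted p = 0.014). With the mean of all probe sets in place of the brightest one, rrm1 was +0.62 (adjusted p = 0.192).

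No member was called in the lines with a single transgene. In Src(p53-), where 0.0239% of all genes were called, 5 members were higher and 4 lower, with a median of +0.13 (50.2% of all genes were higher). Here mcm6 was the 1 member at an unadjusted p under 0.05 (+0.72 ± 0.28, limma, adjusted p = 0.85), and 3.46% of all genes were higher at that level. The next largest was mcm3, +0.43 ± 0.30. On the other mcm6 probe sets Src(p53-) and WT overlapped. These read 3.02 to 3.43 and 2.25 to 2.99 in Src(p53-), against 2.24 to 3.20 and 2.35 to 2.90 in WT. In HBx(p53-), where 0.0622% of all genes were called, 3 members were higher and 6 lower, against 51.8% of all genes lower, with a median of -0.17 and a range of -0.43 to +0.19. There rrm1 (-0.43 ± 0.31, adjusted p = 0.919) and mcm5 (-0.41 ± 0.32, adjusted p = 0.93) had the largest moderated t, with no member at an unadjusted p under 0.05 (5.85% of all genes). The rrm1 value turned to +0.09 without the HBx(p53-) normal diet array, and that of mcm5 to +0.02 with the mean of both probe sets.

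**Figure D2:**
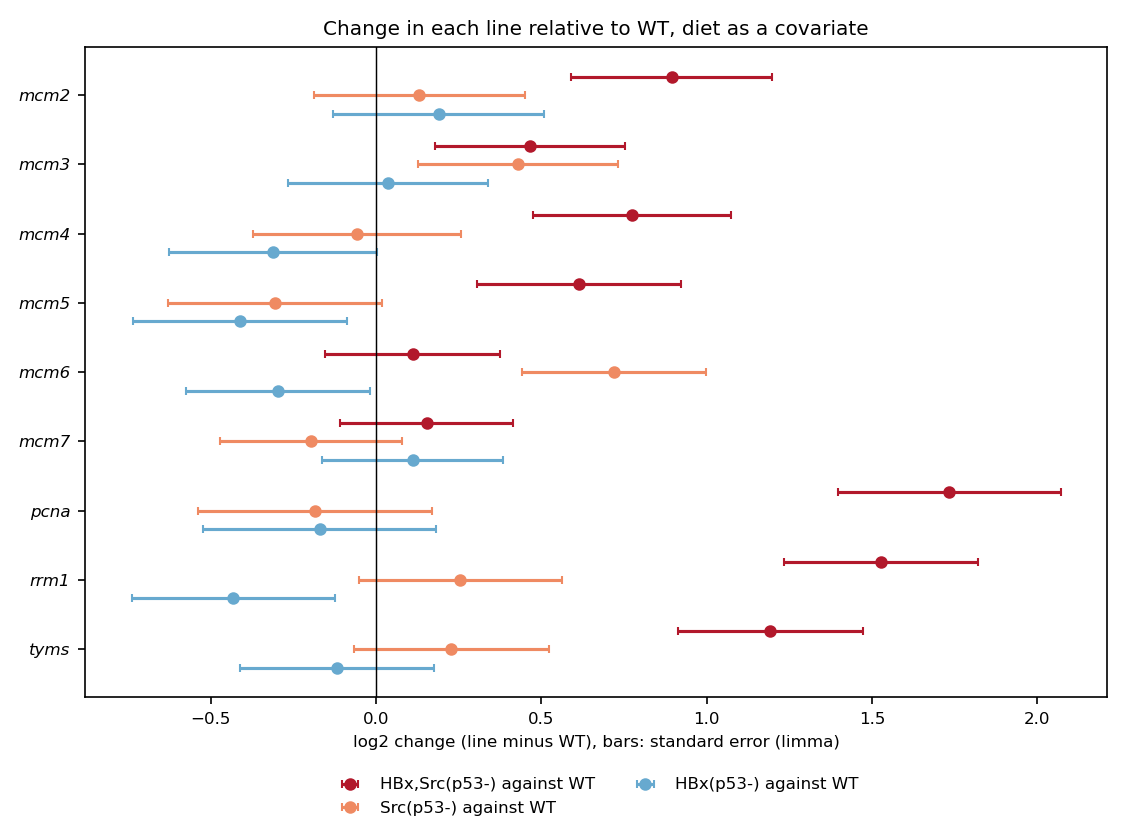
Log2 change of each member in the 3 transgenic lines relative to WT with diet as a covariate, with points for estimates and bars for standard errors from limma. The HBx,Src(p53-) points for pcna (+1.73), rrm1 (+1.53) and tyms (+1.19) lie furthest to the right, and mcm6 is the 1 member whose Src(p53-) point (+0.72) lies right of its HBx,Src(p53-) point (+0.11).

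Set against the lines with a single transgene, HBx,Src(p53-) again had higher estimates for pcna, rrm1 and tyms. These comparisons were chosen after the levels were seen and share the HBx,Src(p53-) arrays with the one against WT. Relative to Src(p53-), pcna was +1.92 ± 0.37, rrm1 +1.27 ± 0.32, tyms +0.96 ± 0.30, mcm5 +0.92 ± 0.34, mcm4 +0.83 ± 0.33 and mcm2 +0.76 ± 0.33. None of these was called (limma, adjusted p = 0.106 for pcna and 0.232 to 0.54 for the others, with 0.0143% of all genes called), and 8 of 9 members were higher, against 53.3% of all genes, the exception being mcm6 (-0.61 ± 0.29). The 6 members named first were those at an unadjusted p under 0.05, against 6.07% of all genes, and 2 of them, pcna and rrm1, were also more than 2-fold higher, against 2.64%.

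Relative to HBx(p53-), rrm1 rose by +1.96 ± 0.32 (limma, adjusted p = 0.0453) and was the 1 of 9 members called, against 0.287% of all genes. Next to it were pcna (+1.90 ± 0.37, adjusted p = 0.064), tyms (+1.31 ± 0.30, 0.113), mcm4 (+1.09 ± 0.33, 0.207) and mcm5 (+1.02 ± 0.34, 0.245), and all 9 were higher, against 54.2% of all genes. These 5 members were at an unadjusted p under 0.05 (8.71% of all genes) and more than 2-fold higher as well (4.25%). The rrm1 call was lost without any one of 12 of the 14 arrays, where its adjusted p was 0.0556 to 0.155, and held without WT normal diet 2 (0.0473) and without HBx,Src(p53-) normal diet 2 (0.0315). With the mean of both rrm1 probe sets the change was +0.89 (adjusted p = 0.121). The second mcm5 probe set, about as bright (mean 2.44) as the one used (2.45), did not follow it. It read 1.72 to 2.89 on HBx,Src(p53-) arrays and 2.08 to 3.88 on HBx(p53-) arrays.

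Under normal diet alone, the difference between HBx,Src(p53-) and WT fish came from 2 arrays on each side. The members at an unadjusted p under 0.05 were rrm1 (+1.62 ± 0.32), pcna (+1.51 ± 0.45), tyms (+1.48 ± 0.37) and mcm2 (+1.22 ± 0.42), which is 4 of 9 against 6.56% of all genes, and each was also more than 2-fold higher (4.16% of all genes met both). None was called by limma in the model of genotype by diet (adjusted p = 0.186, 0.385, 0.297 and 0.462, in that order), nor was any gene (0%). Normal diet Src(p53-) fish had a member median of -0.02 and a range of -0.80 to +0.60, with the largest moderated t for pcna (-0.80 ± 0.55) and mcm5 (-0.76 ± 0.53). No member there had an unadjusted p under 0.05 (5.71% of all genes did), and no gene was called (0%). In normal diet HBx(p53-) fish rrm1 was -1.30 ± 0.39 (adjusted p = 0.571) and mcm4 -0.78 ± 0.51 relative to WT, with no member and no gene called (0%). There rrm1 was the 1 member lower at an unadjusted p under 0.05, against 2.09% of all genes (1.49% with a fall of more than 2-fold). The second rrm1 probe set went the other way, at 2.77 on the HBx(p53-) array against 2.16 and 1.81 on the WT pair. Both single lines had 1 normal diet array, so their spread was taken from the other groups.

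The next question was whether feeding changed the replication genes within a line. In overfed HBx,Src(p53-) fish, rrm1 was -1.25 ± 0.32, tyms -1.07 ± 0.37 and mcm2 -0.83 ± 0.42 relative to normal diet. The second rrm1 probe set had the opposite sign, at +0.40 ± 0.36. For pcna, rrm1 and tyms both overfed arrays lay below both normal diet arrays (3 of 9 members, against 24.6% of all genes). In all, 7 members were lower, against 55.1% of all genes, and 2 higher, with a median of -0.38 against -0.05 over all genes. None was called (limma, adjusted p = 0.241 for rrm1 and 0.352 for tyms; 0.0143% of all genes called), and rrm1 and tyms were the 2 members lower at an unadjusted p under 0.05, against 6.56% of all genes (3.93% with a fall of more than 2-fold). The pcna value was -0.51 ± 0.45.

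In WT fish on an obesity diet, overfed and high fat arrays together, rrm1 was -0.76 ± 0.32 and pcna -0.95 ± 0.45 relative to normal diet, with adjusted p = 0.999 for both and 0% of all genes called. At an unadjusted p under 0.05, rrm1 was the 1 member lower, against 1.69% of all genes. Here 7 members were lower, against 48.1% of all genes, and for rrm1, pcna and mcm6 the obesity diet arrays lay below the normal diet pair (3 of 9, against 13.1% of all genes). The second rrm1 probe set went the other way, at 3.04 (overfed) and 2.42 (high fat) against 2.16 and 1.81. So did another mcm6 probe set, at 3.17 and 3.20 against 2.24 and 2.70, while the remaining mcm6 probe set overlapped. Without WT normal diet 2, the WT array with the highest pcna level, the pcna change was -0.29. In Src(p53-) fish the member median was +0.10 with mcm2 at -0.79 ± 0.51 and rrm1 at -0.60 ± 0.39, and in HBx(p53-) fish it was -0.17 with rrm1 at +0.60 ± 0.39 and mcm7 at -0.59 ± 0.49. No member and no gene was called in these lines (0%), no member had an unadjusted p under 0.05 (5.06% of all genes did in Src(p53-) and 3.74% in HBx(p53-)), and both medians changed sign when 1 array was left out. In Src(p53-) both obesity diet arrays lay below the normal diet array for mcm2, mcm4 and rrm1 (3 of 9, against 33.9% of all genes) and above it for mcm5, mcm6 and mcm7 (3 of 9, against 35.0%). In HBx(p53-) they lay below it for mcm5 and mcm7 (2 of 9, against 32.9%) and above it for mcm4 and rrm1 (2 of 9, against 32.6%). On the second rrm1 probe set the HBx(p53-) obesity diet arrays lay below it, at 1.67 (overfed) and 2.36 (high fat) against 2.77.

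**Figure D3:**
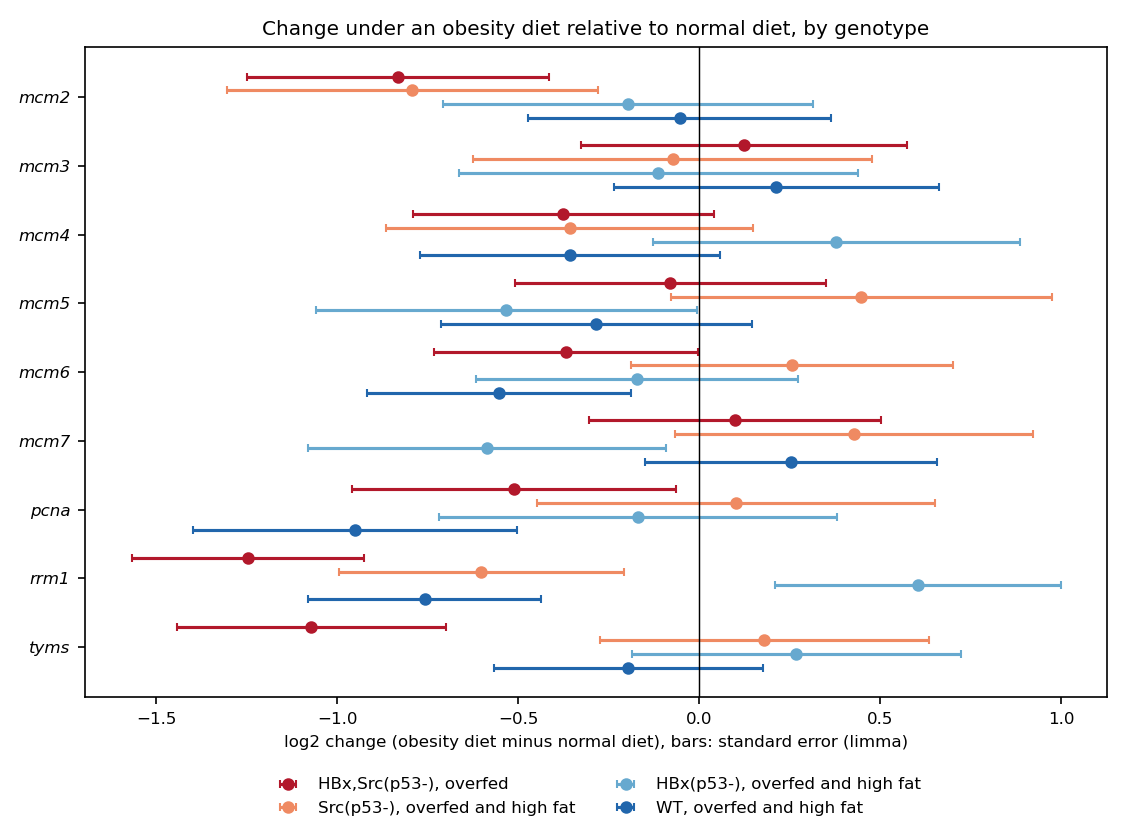
Log2 change of each member under an obesity diet relative to normal diet within each genotype, with points for estimates and bars for standard errors from limma. In HBx,Src(p53-) rrm1 (-1.25) and tyms (-1.07) lie furthest left, and the rrm1 point of HBx(p53-), at +0.60, is the one of the 4 rrm1 points right of 0.

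The diet changes were also compared between lines. The rrm1 change in HBx,Src(p53-) minus that in HBx(p53-) was -1.85 ± 0.51 and that of tyms -1.34 ± 0.59, and neither passed (limma, adjusted p = 0.437 and 0.633). Against WT, the difference for tyms was -0.88 ± 0.53 (adjusted p = 0.723) and for rrm1 -0.49 ± 0.45 (0.828). None of the 5 differences tested between lines gave a called member or gene. At an unadjusted p under 0.05 there were 2 members for HBx,Src(p53-) minus HBx(p53-), 1 for HBx(p53-) minus WT and 0 for the rest. The share of all genes at that level was not computed for these differences, so the counts have no background to be read against.

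Across all genotypes, overfed fish had lower estimates than normal diet fish for 9 of 9 members, against 53.6% of all genes. The median was -0.32, and the largest were rrm1 (-0.81 ± 0.24, adjusted p = 0.739), mcm2 (-0.55 ± 0.25, 0.793) and tyms (-0.50 ± 0.23, 0.793). None was called by limma, nor was any gene (0%), and rrm1 was the 1 member at an unadjusted p under 0.05 (3.78% of all genes were lower at that level). On the second rrm1 probe set the overfed level was higher than under normal diet in WT (3.04 against 2.16 and 1.81). It was lower in HBx(p53-) (1.67 against 2.77) and Src(p53-) (1.87 against 2.59), and overlapped in HBx,Src(p53-). High fat fish had a median of -0.15 with a range of -0.44 to +0.42 and no called gene (0%). No member had an unadjusted p under 0.05, against 3.86% of all genes, and mcm7 (+0.42 ± 0.27) and pcna (-0.44 ± 0.34) had the largest moderated t. The high fat comparison rests on the 3 other genotypes, since HBx,Src(p53-) had no such array.

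The members did not move as 1 block. Over the 14 arrays the 36 pairs of members had Pearson correlations from -0.20 to 0.91 with a median of 0.33, and 30 were above 0. The highest was between rrm1 and tyms (0.91), followed by pcna with rrm1 (0.84) and mcm5 with pcna (0.77). With genotype means taken off, the median was 0.18, and rrm1 with tyms remained at 0.79. Against the mean of the other 8 members, standardised, rrm1 (0.82), pcna (0.79) and tyms (0.78) had the highest correlations and mcm3 (0.36), mcm6 (0.26) and mcm7 (0.02) the lowest. The arrays share genotype, diet and normalisation, so these values describe the arrays and are no test.

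Averaged over the 9 standardised members, HBx,Src(p53-) normal diet 1 was highest at +1.51 SD, then normal diet 2 at +0.77, overfed 2 at +0.55, the high fat Src(p53-) array at +0.44 and overfed 1 at +0.39. The other 9 arrays were below 0, down to -0.90 on the overfed HBx(p53-) array. The non-member genes with a pattern most like this average over the 14 arrays were ddx20 (Pearson r = 0.92), chp2 (0.91), serf2a (0.90), mboat7 (0.89), zc3hc1 (0.88), si:ch1073-13h15.3 (0.88), slc15a2 (0.87), si:zfos-943e10.1 (0.86), wu:fi34b01 (0.86) and pllp (0.86). Once genotype means were taken off, 1 of these 10, ddx20, was still among the 10 most alike.

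The other genes of DNA replication and the cell cycle were followed in 9 lists with 116 measured genes. In HBx,Src(p53-) relative to WT over all diets, 84 were higher and 32 lower, with a median of +0.30 against +0.03 over all genes. One was called, ccna1, the cyclin A best known from germ cells, which rose by +2.95 ± 0.47 (limma, adjusted p = 0.0257). This is 1 of 116 list genes, against 0.497% of all genes called. At an unadjusted p under 0.05, 25 were higher and 1 lower, against 8.74% and 3.27% of all genes. The ccna1 call was lost without either WT normal diet array, WT overfed, WT high fat, HBx,Src(p53-) normal diet 1 or either HBx,Src(p53-) overfed array (adjusted p = 0.0504 to 0.113) and held without any other single array.

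Upstream of the helicase, the origin licensing genes had a median of +0.47, with 8 of 10 higher. The licensing factor cdt1, which loads the MCM ring, was 2.47 and 2.33 on overfed and 2.41 and 2.46 on normal diet HBx,Src(p53-) arrays, and 1.44 to 2.04 on the 10 others. It was +0.72 ± 0.18 (adjusted p = 0.104), and with ccna1 and plk1 it made up the 3 of 116 list genes whose HBx,Src(p53-) arrays were all above the other arrays, against 0.957% of all genes. For plk1 the margin was narrow, 2.08 on HBx,Src(p53-) normal diet 2 against 2.05 on WT overfed. The cdt1 inhibitor geminin (gmnn) was +0.88 ± 0.27 and orc5, an origin recognition subunit, +0.89 ± 0.40. Genes that activate the helicase had a median of +0.21, led by wdhd1 (+0.73 ± 0.30) and gins1 (+0.50 ± 0.22). Of 5 other genes with an MCM name, 1 was higher (mcm3l, +0.75 ± 0.27) and 4 lower (mcm9, -0.49 ± 0.18). Like those of cdt1, the levels of gins1 (1.75 to 2.83) and mcm9 (1.18 to 2.33) lay around the highest array median of 2.23, near background.

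At the fork, the clamp loader, single-strand binding and Okazaki fragment genes had a median of +0.30, with 11 of 15 higher. The clamp loader subunit rfc2 was +1.20 ± 0.30 (adjusted p = 0.108), the single-strand binding subunit rpa2 +0.99 ± 0.30 (0.188) and DNA ligase I, lig1, +1.24 ± 0.39 (0.201). Polymerase and primase genes had a median of +0.18, with pold4, pola2 and prim1 at +0.62 ± 0.19, +0.56 ± 0.20 and +0.68 ± 0.25. The levels of pold4 (1.79 to 2.86), pola2 (1.50 to 2.60) and prim1 (1.40 to 2.82) lay around the highest array median of 2.23. A probe set can sit near its background there. Beyond rrm1 and tyms, the nucleotide supply list had 7 of 12 higher and a median of +0.12, led by dut (+0.64 ± 0.21), whose enzyme keeps uracil out of DNA. Replication-coupled chromatin genes were higher in 10 of 10, with a median of +0.55, among them the histone chaperones nasp (+1.71 ± 0.44) and asf1ba (+0.70 ± 0.21).

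Cell cycle regulators included the largest changes of the lists. Besides ccna1, cyclin E (ccne1) was +1.34 ± 0.35 (adjusted p = 0.127) and the activator e2f3 +1.14 ± 0.37 (0.223). Of the cyclin-dependent kinases, cdk1 was +0.64 ± 0.40 and cdk2 +0.38 ± 0.24. In the mitosis list 14 of 20 were higher, with a median of +0.32, led by cyclin B (ccnb1, +2.11 ± 0.56, 0.127), the kinase plk1 (+1.49 ± 0.40, 0.137) and prc1a (+0.79 ± 0.25, 0.213). Without HBx,Src(p53-) normal diet 2, ccnb1 (+2.88, 0.00134) and plk1 (+2.02, 0.00439) were called, as were ccne1, nasp, gmnn and mcm3l, in a fit that called 248 in place of 104 of all genes.

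**Figure D4:**
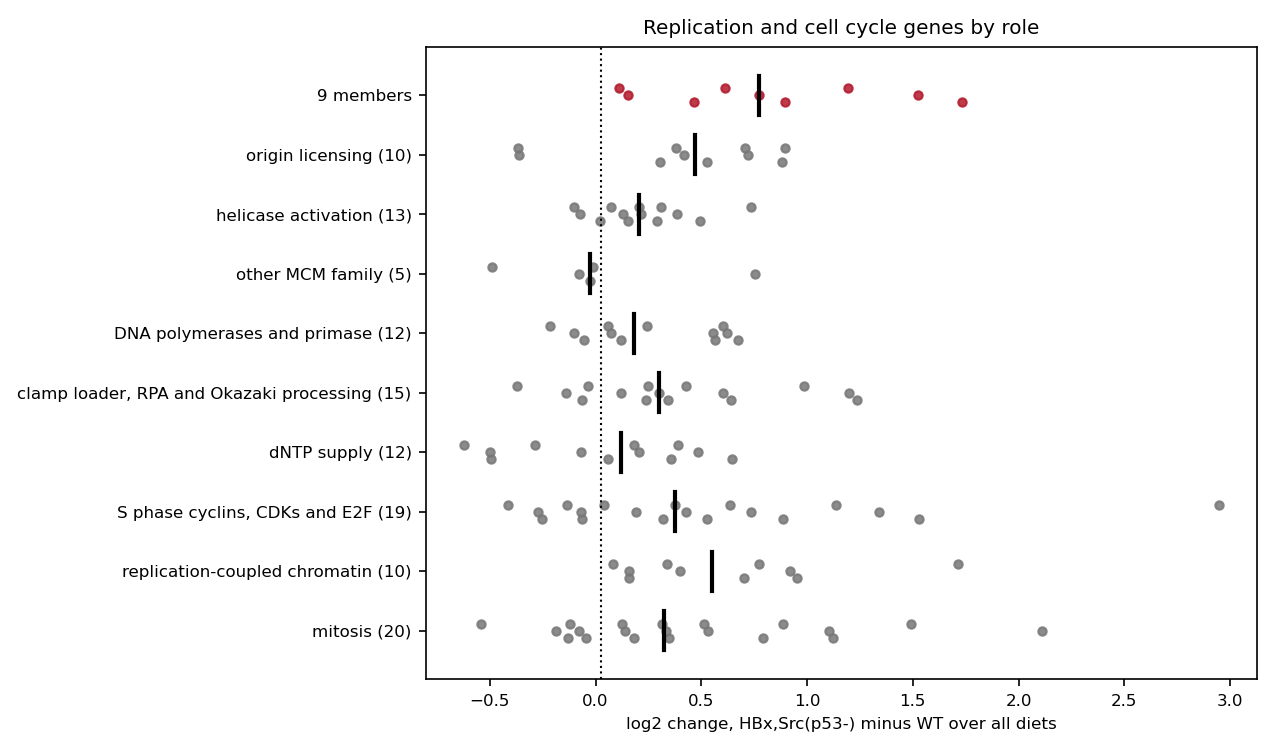
Log2 change in HBx,Src(p53-) relative to WT over all diets for the 9 members (red) and for 9 lists of other replication and cell cycle genes, 1 point per gene, with black bars for list medians and a dotted line for the median of all genes (+0.03). The member median (+0.77) lies right of every list median, the highest of which is replication-coupled chromatin (+0.55), and ccna1 at +2.95 is the point furthest right.

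In overfed HBx,Src(p53-) fish the clamp, Okazaki fragment and polymerase genes had mostly lower levels than under normal diet. Of the 116 list genes 75 were lower, against 55.1% of all genes. None was called, and 0.0143% of all genes were. At an unadjusted p under 0.05, 9 were lower and 1 higher, against 6.56% and 4.13% of all genes. Clamp and Okazaki fragment genes were lower in 13 of 15 (median -0.46), with the flap nuclease fen1 at -1.35 ± 0.34, lig1 at -1.48 ± 0.51 and rnaseh2a at -0.90 ± 0.38. Polymerase genes were lower in 10 of 12 (median -0.30, prim1 -0.88 ± 0.27), while the nucleotide supply list had 6 of 12 lower and a median of -0.01, with thymidine kinase (tk1) at -1.37 ± 0.54. The inhibitor cdkn1ba was -2.13 ± 0.61 and e2f3 -1.31 ± 0.38, while gmnn was the gene on the higher side (+0.88 ± 0.34). The mitosis list had 11 of 20 lower and a median of -0.07. For the genes that activate the helicase the median was +0.07, with 9 of 13 higher, but dbf4b of this list was lower (-0.76 ± 0.25). The origin recognition gene orc2 was lower too (-1.09 ± 0.43).

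The 4 HBx,Src(p53-) arrays therefore came in different orders for different genes. The ccna1 level was 5.70 on overfed 1, 4.76 on overfed 2, 5.67 on normal diet 1 and 3.23 on normal diet 2, and 1.38 to 2.07 on the 10 other arrays. For ccnb1 the same arrays read 5.06, 4.55, 5.56 and 2.59, and for plk1 3.55, 3.47, 4.40 and 2.08. Normal diet 2, which had the highest rrm1 and tyms levels of all arrays, thus had the lowest ccna1, ccnb1 and plk1 of the line, and its ccnb1 was within the WT range of 1.78 to 2.93.

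Markers of some other cell types moved with the line. The mean of 20 germ cell markers was 3.39 on overfed 1, 2.80 on overfed 2, 3.44 on normal diet 1 and 2.21 on normal diet 2 of HBx,Src(p53-), against 1.85 to 1.94 in Src(p53-), 1.86 to 1.94 in HBx(p53-) and 1.87 to 2.49 in WT. Of these markers 14 of 20 were higher in HBx,Src(p53-) than in WT (53.1% of all genes were), 7 of them more than 2-fold (4.32% of all genes). The egg coat gene zp2.1 was the 1 of 20 germ cell markers called (+3.63 ± 0.58, limma, adjusted p = 0.0259), against 0.497% of all genes. The oocyte histone h1m read 6.66, 4.95, 6.80 and 4.44 on the HBx,Src(p53-) arrays in that order, 1.96 to 2.93 on the Src(p53-) and HBx(p53-) arrays and 1.89 to 4.74 in WT. The germ cell gene dazl read 3.79, 3.20, 4.01 and 1.59, and the oocyte gene buc 3.72, 2.86, 3.35 and 1.63, against at most 2.68 for dazl and 1.63 for buc on the 10 other arrays. Not every marker rose, as 6 of 20 were lower than in WT. Among those that overlapped with WT, ddx4 read 2.15 to 2.66 in HBx,Src(p53-) against 1.87 to 2.56. For figla this was 1.00 to 1.37 against 1.09 to 1.41, and for sycp3 1.81 to 2.48 against 2.07 to 2.78. The piwil1 and gsdf levels overlapped as well. Within the line the germ cell mean, like ccna1, ccnb1 and plk1, was lowest on normal diet 2. The WT normal diet 2 array, with the highest pcna of WT, also had the highest germ cell mean of WT.

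Whether germ cells in the samples contributed to these changes was not tested. The germ cell mean itself differed between the lines, so a fit with it as a covariate cannot separate it from the line. HBx,Src(p53-) normal diet 2 had a germ cell mean of 2.21, below WT normal diet 2 (2.49) but above the other WT arrays (1.87 to 2.07). Its zp2.1 level (3.35) was above every WT array (at most 2.54), so it was not free of germ cell markers. On this array pcna (5.69), rrm1 (5.69) and tyms (4.12) were above every WT array. With the germ cell mean as a covariate, the change relative to WT was +1.36 for pcna, +1.60 for rrm1, +1.54 for tyms, +1.21 for rfc2, +1.17 for lig1 and +0.63 for cdt1. In the same fit it was +0.38 for ccnb1, +0.38 for plk1, +0.32 for nasp, +0.25 for ccne1 and +1.55 for ccna1, and none of these 11 genes was called (adjusted p = 0.191 to 0.877). Leaving out the 2 arrays with the highest germ cell means, a choice made after seeing the data, gave +1.69 for pcna, +1.55 for rrm1 and +1.33 for tyms (adjusted p = 0.238, 0.216 and 0.257). Of the HBx,Src(p53-) arrays kept there, overfed 2 had a germ cell mean of 2.80, above every WT array, so that fit did not remove the germ cell markers. Without both normal diet arrays of HBx,Src(p53-), also chosen after seeing the data, pcna was +1.69, rrm1 +1.14 and tyms +0.69 (0.192, 0.259 and 0.419).

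**Figure D5:**
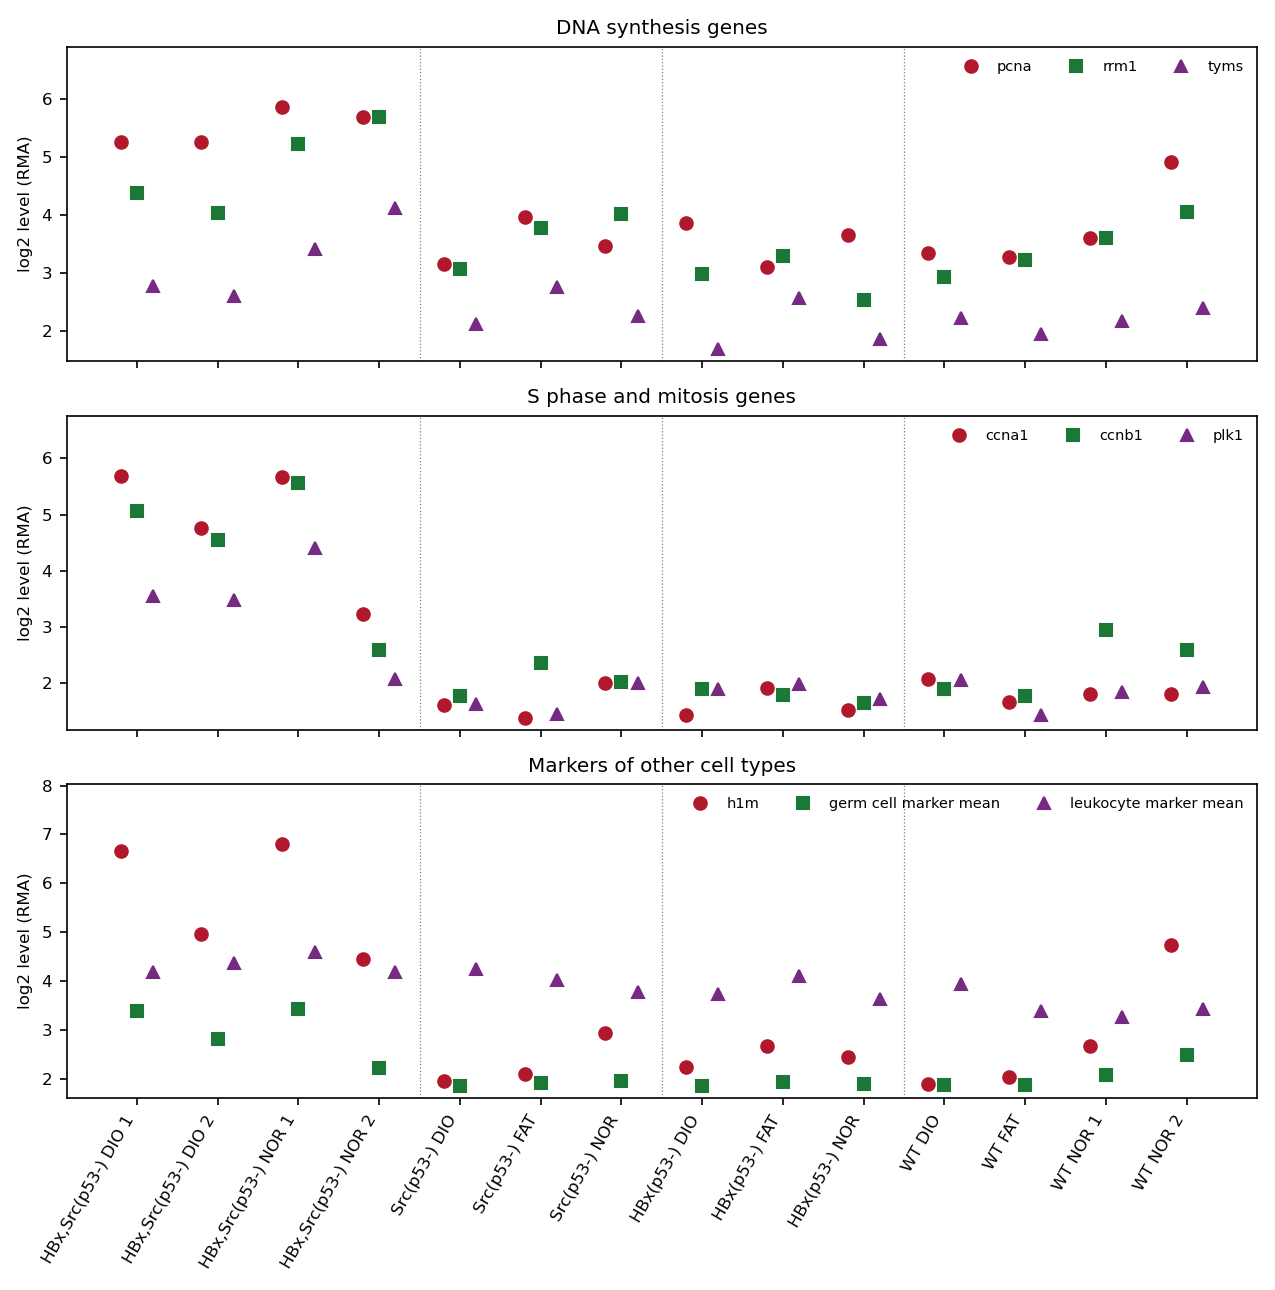
Log2 levels (RMA) on each array of pcna, rrm1 and tyms (top), of ccna1, ccnb1 and plk1 (middle), and of h1m with the mean germ cell and leukocyte marker levels (bottom), with dotted lines between genotypes. HBx,Src(p53-) normal diet 2 has the highest rrm1 (5.69) and tyms (4.12) but the lowest ccna1 (3.23), ccnb1 (2.59), plk1 (2.08) and germ cell mean (2.21) of its line. Levels of different genes are not comparable with one another.

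Leukocyte and digestive enzyme markers differed between lines too. Other lists moved less in HBx,Src(p53-) relative to WT over all diets. Bile duct markers had 6 of 12 higher (median -0.02) and erythroid markers 5 of 9 (+0.07), against 53.1% of all genes. Endothelial markers had 8 of 10 higher (median +0.33) and stellate and stromal markers 7 of 9 (+0.30). The mean of 16 leukocyte markers was 4.18 to 4.58 in HBx,Src(p53-), 3.77 to 4.24 in Src(p53-), 3.63 to 4.09 in HBx(p53-) and 3.26 to 3.95 in WT. In HBx,Src(p53-) relative to WT, 15 of 16 were higher, against 53.1% of all genes. The macrophage gene mpeg1.1 was the 1 of 16 called (+1.64 ± 0.29, limma, adjusted p = 0.037), against 0.497% of all genes. With the leukocyte mean as a covariate, pcna was +1.77, rrm1 +1.37 and tyms +0.53 (adjusted p = 0.532, 0.619 and 0.873), against +1.19 for tyms without the covariate. The leukocyte mean did not overlap between HBx,Src(p53-) and WT, so this fit cannot separate it from the line. The mean of 14 exocrine pancreas markers was 6.01 to 7.37 in HBx,Src(p53-), 4.50 to 6.004 in Src(p53-), 6.23 to 8.40 in HBx(p53-) and 4.23 to 5.34 in WT. Relative to WT, their median was +1.92 in HBx,Src(p53-), +0.36 in Src(p53-) and +2.55 in HBx(p53-). In HBx,Src(p53-) all 14 were higher, against 53.1% of all genes. Of these, 13 were more than 2-fold higher, against 4.32% of all genes, and 2 were called, against 0.497%. These were the protease genes prss1 (+2.41 ± 0.44, limma, adjusted p = 0.0393) and cpa5 (+2.40 ± 0.44, 0.0402). The HBx(p53-) arrays, which include the highest mean of these markers, had levels of 3.11 to 3.87 for pcna, 2.53 to 3.29 for rrm1 and 1.69 to 2.57 for tyms. The lines differ in genotype as well, so these levels cannot separate the pancreas markers from the line. No fit took the pancreas mean as a covariate. The parts of leukocytes and of exocrine pancreas in the results were not tested beyond these values.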

How the data were processed

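Liver RNA of 14 zebrafish samples was hybridised to ZebGene 1.1 ST arrays. The deposited values are log2 levels per probe set, which the authors made with RMA in the oligo package (versions not given in the sources used here): background correction, quantile normalisation over all arrays and median polish. Quantile normalisation hides changes in total RNA per cell, and probes of close paralogs can share RNA. Scan dates and plate positions were not given, so no batch was tested, and arrays have no read depth, so their number limits the precision.

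Of 75212 probe sets, 30358 carried 1 gene symbol in the platform annotation, 1015 several and 43839 none. Symbols that differed only in case were merged, which gave 20908 genes (6449 with several probe sets, of which the one with the highest mean was used). The Entrez identifiers of 19462 were found in RefSeq (GRCz12tu), and 1 symbol was updated. In the lists, rrm2, rrm2.1, dhfr, cdc25a, e2f1, tpx2, incenp and mki67 had no probe set with 1 symbol and are not analysed here. No coordinates or sequences are given, since no genome of the arrays' build was used.

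A pair of limma models (version 3.58.1, R 4.3.3) were fitted to all genes with lmFit, contrasts.fit and eBayes: 8 cell means, genotype by normal or obesity diet, for changes within a line and between lines under normal diet (6 residual degrees of freedom), and a model with genotype and diet as additive terms (8 residual degrees). A gene counted as called where its p, adjusted by the Benjamini-Hochberg method across the 20908 genes, was under 0.05. Low levels were not filtered. The script was tested on simulated data. Members are given on every array, and in each comparison those with an unadjusted p under 0.05 (at least the 2 with the largest moderated t) are named, with up to 3 genes of each list. The members, the lists, the markers and these rules were chosen with earlier results of these data known. Alternatives were the mean of all probe sets, centring of arrays, a filter at a mean of 3, an intensity trend, array weights, marker means as covariates, a replicate block, a fold rule and leaving out each array.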

Additional observations from a re-analysis of the deposited data

How the results depend on the processing

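With 1 or 2 arrays per group, the number of arrays limits every test, and 5 of the 9 members are dim, with a mean level under 3, so that counts and medians with the filter on dim genes rest on 4 members. The count of members called in HBx,Src(p53-) relative to WT over all diets (0) became 2 with each array centred on its median, with genes of a mean level of at least 3 or with array weights, 3 under the rule of over 2-fold and an unadjusted p under 0.05, and 0 to 2 when 1 array was left out (1 without WT normal diet 2 or HBx(p53-) normal diet, 2 without HBx(p53-) overfed). Relative to HBx(p53-) (1 member called) it became 0 with the mean of all probe sets, with either marker mean as a covariate, without both HBx,Src(p53-) normal diet arrays or without the 2 arrays with the highest germ cell markers, 2 with array weights, 5 under the fold rule, and 0 to 2 when 1 array was left out. The fold rule also gave 2 members for overfed HBx,Src(p53-), 4 for HBx,Src(p53-) relative to WT under normal diet, 1 for HBx(p53-) relative to WT under normal diet and 2 for HBx,Src(p53-) relative to Src(p53-), each 0 otherwise. In every other comparison 0 members were called under each alternative run.

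Some values changed sign. The median of the members under an obesity diet became -0.25 in Src(p53-) with the filter on dim genes, -0.072 with the leukocyte covariate and, with 1 array left out, -0.31 (without Src(p53-) high fat) to +0.49 (without Src(p53-) overfed). In HBx(p53-) it was -0.17 to +0.072 with 1 array left out, above 0 without HBx(p53-) overfed. Relative to WT under normal diet, the median in Src(p53-) became +0.044 with arrays centred and +0.011 with the germ cell covariate, and in HBx(p53-) it was -0.43 to +0.049 with 1 array left out, above 0 without WT normal diet 2. Over all diets the median in Src(p53-) became -0.027 with the filter and -0.016 with the leukocyte covariate, and was -0.032 to +0.16 with 1 array left out. The high fat median was -0.24 to +0.19 with 1 array left out. Both changed sign without WT high fat. With the mean of all probe sets, rrm1 was -0.073 in HBx(p53-) under an obesity diet (+0.60 with the brightest one) and mcm5 +0.016 in HBx(p53-) relative to WT, and rrm1 in the same comparison was -0.75 to +0.089 with 1 array left out, above 0 without HBx(p53-) normal diet. In HBx,Src(p53-) relative to WT, hells (+0.95) was -0.22 with the germ cell covariate, and cdk1 (+0.64) was -0.23 with it, -0.47 with the leukocyte covariate and -0.063 without the 2 arrays with the highest germ cell markers. The cause was not tested.

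Replicate numbers are shared by 3 groups, but deviations of same-numbered arrays correlated at -0.03, -0.23 and 0.13, so the numbers were not taken to pair samples. With the replicate block within HBx,Src(p53-), rrm1 had an adjusted p of 0.054 and pcna 0.0557 relative to WT, no member call changed, ccne1 (0.0163) and nasp (0.0339) were called, and 172 in place of 104 of all genes were called. That count was 190 with array weights, 6 with the germ cell covariate, 0 with the leukocyte covariate and 28 to 248 when 1 array was left out. Without a lone normal diet array, the comparisons that need it could not be fitted.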
